A study of Mus musculus with 6 samples.

Results

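Matrix metalloproteinases and the tissue inhibitors that block them were described here as 9 genes, chosen by symbol from the 26106 genes of the deposited table: the proteases Mmp9, Mmp12, Mmp14, Mmp8, Mmp19 and Mmp2 and the inhibitors Timp1, Timp2 and Timp3. All 9 were found, each as 1 entry. The cells were bone marrow-derived macrophages of wild-type male C57BL/6 mice aged 6 weeks, cells that RANKL, a cytokine, turns into bone-resorbing osteoclasts. The ZM group (n = 3) received 10 µM ZM-306416, which inhibits the kinase of VEGF receptors, and the Ctrl group (n = 3) did not, with no vehicle named. Both groups were grown for 2 days in α-MEM with 10% serum, RANKL at 100 ng/mL and the macrophage growth factor M-CSF at 30 ng/mL, and mRNA libraries were sequenced.

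Metalloproteinases are zinc-dependent enzymes that cut collagens, elastin and other matrix proteins. They are made as inactive precursors, activated by cleavage, and blocked by Timp proteins that occupy the catalytic site. In bone, Mmp9 (gelatinase B) is a product of osteoclasts, Mmp12 is the elastase of macrophages, and Mmp14 is a membrane-anchored collagenase that, together with Timp2, activates the precursor of Mmp2 (gelatinase A).

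Total counts were 51329237 to 54256377 in ZM and 45512004 to 49613493 in Ctrl libraries. Between libraries of 1 group the chi-square per degree of freedom was 52.7 to 250 in ZM and 6.35 to 9.57 in Ctrl. Sampling noise alone gives values near 1 if each fragment is counted once, and higher values if both mates are counted. ZM replicate 3 was in both of the larger ZM values. Log2 folds without this library are also given for Mmp9, Mmp8, Mmp2, Timp2, Thbs1 and Col18a1, but not for every gene it moved. Macrophage markers were present in both groups, and of 7 tested, 5 were higher with ZM and 0 lower. Of these 5, Adgre1, Itgam, Lyz2 and Mertk were highest in ZM replicate 3, and Cx3cr1 was not. The calls on macrophage markers were not repeated with a library left out. Of 7 osteoclast markers, 7 were lower with ZM and 0 higher. Beside these counts, 5.54% of all genes tested were called higher and 5.44% lower. Whether replicates were separate mice or cultures is not stated, and p-values therefore cover a spread among libraries that may be technical only.

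Mmp9 fell about 8-fold and Mmp2 rose about 2-fold with ZM, whereas none of the other 6 tested members passed the test. Differences were tested with edgeR's quasi-likelihood test, with Benjamini-Hochberg adjustment over all 15590 genes tested and a threshold of 0.05. Of the 9 members 8 were tested, since Timp3 had too few counts, and 1 was higher and 1 lower with ZM. Over all genes tested, 5.54% were called higher and 5.44% lower, 11% in all. The ZM and Ctrl values of 4 of the 8 tested members did not overlap on the CPM scale (counts scaled to a common library size with TMM composition factors), a share of 50.0% beside a background of 42.9%. Of these, 3 were higher and 1 lower, beside 21.5% and 21.4% of all genes. The median log2 fold of the tested members was 0.16, and that of all genes tested was 0.00.

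**Figure D1:**
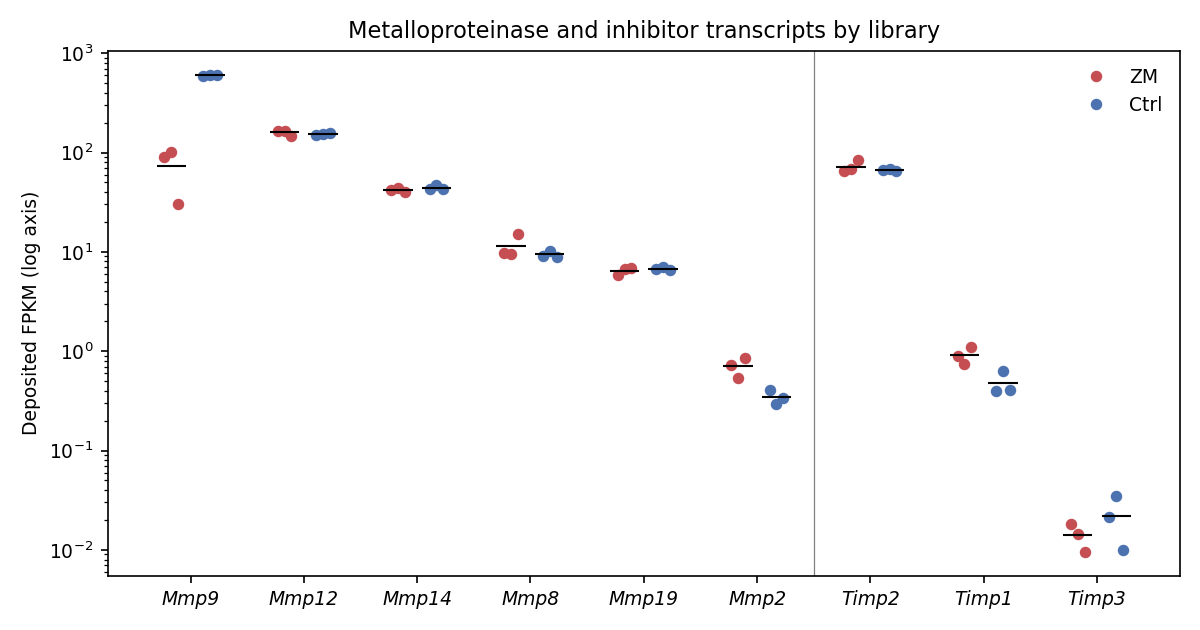
Deposited FPKM (counts scaled by gene length and library total, log axis) of the 9 genes in each library, with ZM libraries in red left of Ctrl libraries in blue; black lines are group means. Mmp9 is the one gene whose ZM libraries, at 30.1 to 100.4 FPKM, lie far below its Ctrl libraries, at 592.1 to 608.5 FPKM.

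Mmp9 (ENSMUSG00000017737, a protein-coding gene on the forward strand of GRCm38, chr2:164940780-164955850) was the member with the highest level in Ctrl cells. It had 90.1, 100.4 and 30.1 FPKM in ZM replicates 1, 2 and 3, against 592.1, 600.5 and 608.5 FPKM in Ctrl replicates 1, 2 and 3. Each ZM library lay below each Ctrl library, and ZM replicate 3 was the lowest. On the CPM scale Mmp9 averaged 262 ± 127 in ZM cells and 2078 ± 38.1 in Ctrl cells (SD, n = 3 each). This was a 7.94-fold lower level (log2 fold -2.99, SE 0.38, 95% interval -3.88 to -2.10, adjusted p = 0.00654 by edgeR).

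The call on Mmp9 held without any single library, at adjusted p of 8.47e-07 to 0.0435, and its log2 fold was -2.63 without ZM replicate 3. Ordered by FPKM among all genes of the table, Mmp9 held rank 455 to 1725 in ZM libraries and rank 53 to 56 in Ctrl libraries. In bulk libraries such as these, fewer cells of a type and less RNA per cell cannot be told apart. The 7 osteoclast markers summed to 357 to 524 CPM in ZM and 2590 to 2826 CPM in Ctrl libraries, and their part in the fall of Mmp9 was not tested. Ctsk, the collagen-degrading cathepsin of osteoclasts, had a log2 fold of -3.04 (SE 0.23) and Acp5, tartrate-resistant acid phosphatase, one of -3.02 (SE 0.23), both named after their values were seen. The other 5 osteoclast markers ranged from -3.28 for Oscar, an osteoclast receptor, to -1.96 for Dcstamp, a fusion protein, and -1.82 for Atp6v0d2, a proton pump subunit. Neutrophils also store Mmp9 protein. Their 12 listed markers summed to 2.81 to 3.61 CPM in ZM and 3.26 to 4.42 CPM in Ctrl libraries, and Elane, Mpo and Ly6g had no entry. S100a8, at 1.87 CPM in ZM and 1.88 CPM in Ctrl cells, and Mmp25, at 1.06 CPM in ZM and 0.825 CPM in Ctrl cells, made up much of that sum. Of 4 tested neutrophil markers 0 rose and 2 fell, beside 5.54% called higher and 5.44% called lower over all genes tested. S100a9 had a log2 fold of -3.58 (adjusted p = 0.0133 by edgeR) and Cxcr2 one of -2.79 (adjusted p = 0.0482). Both were near the floor. In replicates 1, 2 and 3, S100a9 had 2, 1 and 2 counts in ZM and 12, 26 and 24 in Ctrl. Cxcr2 had 10, 6 and 0 counts in ZM and 30, 42 and 35 in Ctrl. Both calls were lost when ZM replicate 1 or any Ctrl library was left out, at adjusted p of 0.0517 to 0.176, and that on Cxcr2 also with no composition factor (adjusted p = 0.0529). The part of neutrophils in the fall of Mmp9 was not tested.

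Mmp12, the macrophage elastase, took the first place among the proteases in ZM cells. It lies on the forward strand at chr9:7344381-7369499 (ENSMUSG00000049723) and had 166.0, 165.0 and 148.2 FPKM in ZM replicates 1, 2 and 3, against 149.8, 153.3 and 155.8 FPKM in Ctrl replicates 1, 2 and 3. The groups overlapped on this scale. On the CPM scale, which corrects for library composition, ZM values of 1167 to 1208 lay above Ctrl values of 1057 to 1109. The difference did not pass the test (log2 fold 0.13, 95% interval -0.06 to 0.32, adjusted p = 0.311 by edgeR). The ratio of Mmp9 to Mmp12 FPKM, which was chosen after the values were seen and was not tested, was 0.543, 0.608 and 0.203 in ZM replicates 1, 2 and 3, against 3.95, 3.92 and 3.91 in Ctrl replicates 1, 2 and 3. Of the exonic bases of Mmp12, 157 lie opposite Mmp1b, which had no entry. In ZM libraries Mmp9 was below Mmp12, and in Ctrl libraries it was above.

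Mmp14, the membrane-type collagenase at chr14:54431612-54445364 on the forward strand, was not called. It had 41.8, 43.5 and 40.1 FPKM in ZM replicates 1, 2 and 3, against 42.8, 47.2 and 43.3 FPKM in Ctrl replicates 1, 2 and 3. The groups overlapped, and the 95% interval of the log2 fold ran from -0.22 to 0.18 (log2 fold -0.02, adjusted p = 0.87 by edgeR).

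The start regions of Mmp12 and Mmp14 are shown because these were the proteases that followed Mmp9 in level in Ctrl cells and neither was called. The sequences are the 250 bases before a RefSeq start on GRCm38.p6, printed 5′ to 3′ on the forward strand, for Mmp12 at chr9:7347124-7347373 and for Mmp14 at chr14:54431348-54431597. Capitals mark TGANTCA, the element bound by AP-1 factors, which reads the same on both strands.
Mmp12: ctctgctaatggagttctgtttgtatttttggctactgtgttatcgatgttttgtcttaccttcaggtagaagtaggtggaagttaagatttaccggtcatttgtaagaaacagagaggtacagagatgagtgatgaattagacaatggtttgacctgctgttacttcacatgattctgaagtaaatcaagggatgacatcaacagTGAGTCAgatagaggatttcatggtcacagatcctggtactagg
Mmp14: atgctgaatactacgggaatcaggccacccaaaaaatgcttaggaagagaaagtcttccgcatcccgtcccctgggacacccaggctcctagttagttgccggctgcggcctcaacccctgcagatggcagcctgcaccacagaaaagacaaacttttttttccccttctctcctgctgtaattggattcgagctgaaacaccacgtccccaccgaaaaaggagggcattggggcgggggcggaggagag

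The Mmp12 window held 1 match, which began 44 bases before the start. The window shown is the Mmp12 window with a match, and it lies inside the gene span given above. A second RefSeq start of Mmp12, near the beginning of that span, with the window chr9:7344147-7344396, had no match. Neither did the windows of Mmp14, Mmp8, Timp1, Timp2 and Timp3. Matches were present in 6.75% of 32851 windows of the same length over all genes. A match describes the letters of a window and is not a measured site. Of the 9 members 6 had a RefSeq window; Mmp9, Mmp19 and Mmp2 are named only.

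Mmp8, known as the collagenase of neutrophils, and Mmp19, a protease of broad matrix specificity, were lower than these in both groups, and neither was called. Mmp8 (chr9:7558456-7568485, forward strand) had 9.66, 9.51 and 15.0 FPKM in ZM replicates 1, 2 and 3, against 9.12, 10.3 and 8.95 FPKM in Ctrl replicates 1, 2 and 3. ZM replicate 3 was the highest library, and the other ZM libraries lay within the Ctrl range. The log2 fold of Mmp8 was 0.35 (95% interval -0.16 to 0.86, adjusted p = 0.293 by edgeR), and 0.05 without ZM replicate 3. Mmp19 (chr10:128790910-128800824, forward strand) had 5.91, 6.68 and 6.85 FPKM in ZM replicates 1, 2 and 3, against 6.76, 6.97 and 6.60 FPKM in Ctrl replicates 1, 2 and 3. The Mmp19 groups overlapped, with a 95% interval of the log2 fold from -0.26 to 0.27, and its sign turned with the scaling. Exons of Mmp19 share 789 bases with Tmem198b on the opposite strand, which had 1180 counts against 7047 for Mmp19, so its level is uncertain to that extent.

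Mmp2, gelatinase A, was the member that rose, at a low level in both groups. The gene lies at chr8:92827291-92853420 on the forward strand. It had 134, 93 and 148 counts in ZM replicates 1, 2 and 3, against 62, 49 and 56 counts in Ctrl replicates 1, 2 and 3, or 0.733, 0.537 and 0.855 FPKM in ZM and 0.404, 0.293 and 0.336 FPKM in Ctrl. Every ZM library was above every Ctrl library. The level was 2.17-fold higher with ZM (log2 fold 1.12, SE 0.27, 95% interval 0.48 to 1.75, adjusted p = 0.0425 by edgeR).

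The call on Mmp2 was close to the threshold. It was lost without Ctrl replicates 1, 2 and 3 (adjusted p = 0.133, 0.167 and 0.161) and without ZM replicate 1 (adjusted p = 0.105), and also with limma-voom (adjusted p = 0.0542). It held without ZM replicates 2 and 3 (adjusted p = 0.0125 and 0.0381), and the fit without ZM replicate 3 gave a log2 fold of 0.91. Fibroblasts and other stromal cells make much Mmp2. Their 10 listed markers summed to 3.63 to 5.00 CPM in ZM and 3.14 to 5.44 CPM in Ctrl libraries. Of 6 tested 0 were called in either direction, beside 11% over all genes tested. Each of the 10 had at least 1 count in the table, and Col1a1, Col1a2 and Col3a1 are also among the listed matrix genes.

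**Figure D2:**
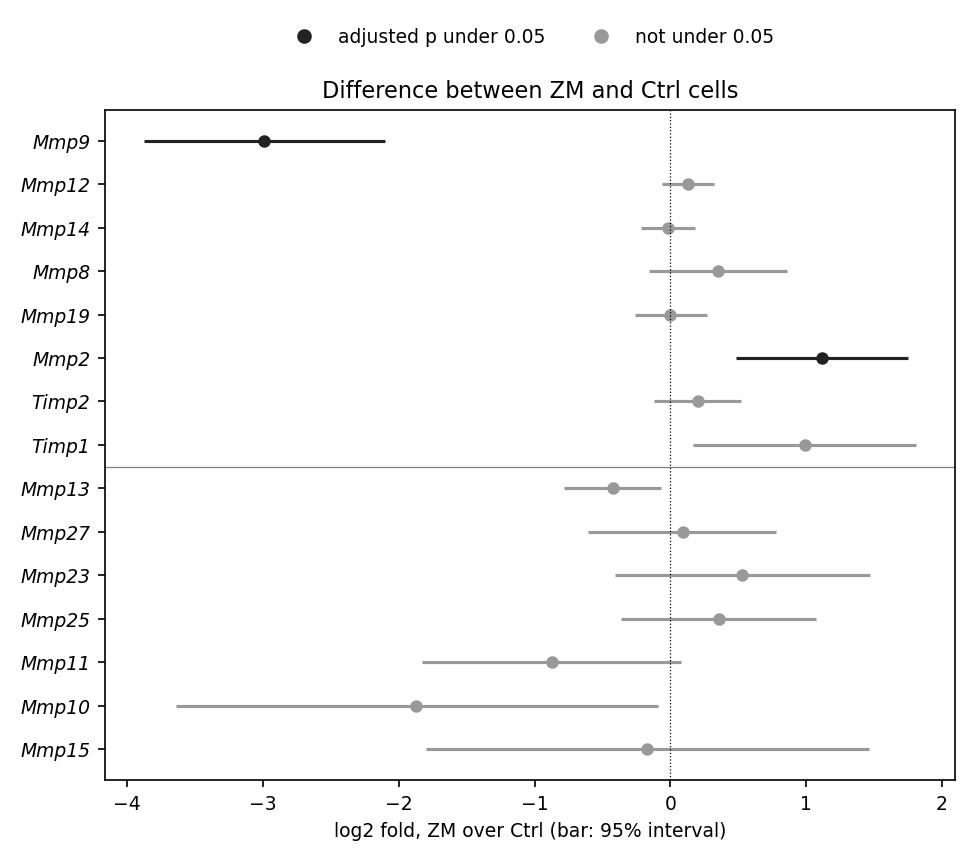
Log2 fold of ZM over Ctrl for the 8 tested members (above the line) and the 7 other tested Mmp genes (below it), with 95% intervals; black marks genes with adjusted p under 0.05 and grey the others. Mmp9 at -2.99 and Mmp2 at 1.12 are the genes in black.

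Among the inhibitors, Timp2 made up nearly all of the transcript. Timp2 (chr11:118301069-118355740, reverse strand), which blocks metalloproteinases and takes part in the activation of Mmp2, had 65.3, 68.1 and 83.3 FPKM in ZM replicates 1, 2 and 3, against 66.2, 67.9 and 64.9 FPKM in Ctrl replicates 1, 2 and 3. ZM replicate 3 was again the highest library, and the groups overlapped. The log2 fold was 0.20 (95% interval -0.12 to 0.52, adjusted p = 0.341 by edgeR), and 0.03 without ZM replicate 3. Timp2 was between 98.6% and 98.9% of the summed FPKM of the 3 inhibitors in ZM libraries and between 99.0% and 99.4% in Ctrl libraries.

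Timp1 (chrX:20870166-20874735, forward strand), an inhibitor of most secreted metalloproteinases, was low. It had 43, 34 and 50 counts in ZM replicates 1, 2 and 3, against 16, 28 and 18 counts in Ctrl replicates 1, 2 and 3. The groups did not overlap, yet the 1.99-fold difference did not pass the adjustment (log2 fold 0.99, SE 0.35, unadjusted p = 0.0239, adjusted p = 0.106 by edgeR), nor did it in any of the 14 alternatives in which Timp1 was tested, at adjusted p of 0.0551 to 0.301. Timp3 (chr10:86300372-86349506, forward strand), the inhibitor that binds to the matrix, had 8, 6 and 4 counts in ZM replicates 1, 2 and 3, against 8, 14 and 4 counts in Ctrl replicates 1, 2 and 3. A difference in Timp3 was not detectable at this depth, and 1733 of its exonic bases are shared with Syn3 on the opposite strand.

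The make-up of the protease transcript pool differed between the groups. Mmp9 was 28.7%, 30.8% and 12.5% of the summed FPKM of the 6 Mmp members in ZM replicates 1, 2 and 3, against 73.9%, 73.4% and 73.9% in Ctrl replicates 1, 2 and 3. Mmp12 was 50.7% to 61.4% of this sum in ZM libraries and 18.7% to 18.9% in Ctrl libraries. Mmp14 was 13.3% to 16.6% in ZM and 5.26% to 5.77% in Ctrl, although its own level did not pass the test, because a share depends on the other members of the sum. The sum itself was 241 to 326 FPKM in ZM libraries and 801 to 824 FPKM in Ctrl libraries. Set against the summed inhibitors, it was 4.11 ± 1.08 times as high in ZM and 12.2 ± 0.365 times as high in Ctrl cells (SD, n = 3 each). These sums describe the libraries and were not tested.

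**Figure D3:**
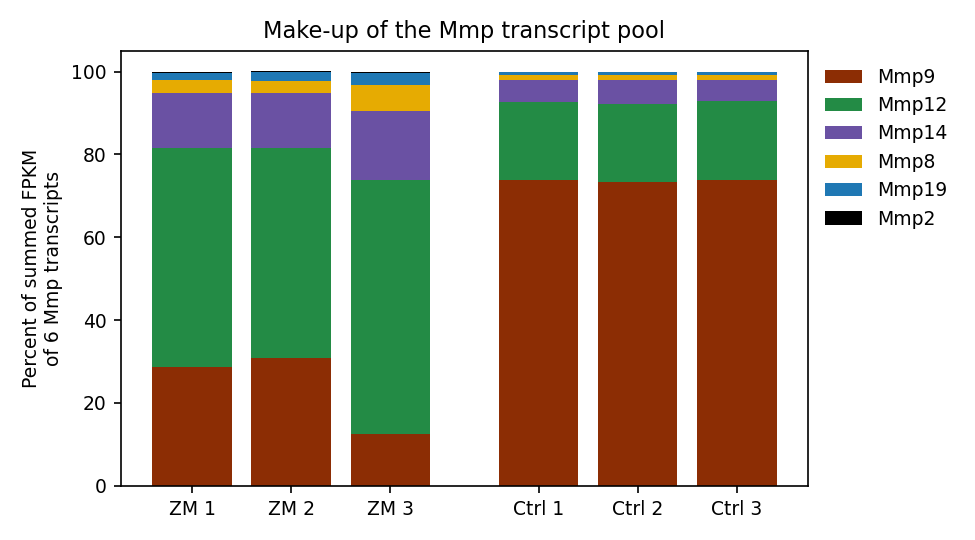
Percent of the summed FPKM of the 6 Mmp members held by each of them, one stacked bar per library, with ZM libraries on the left and Ctrl libraries on the right. Mmp12 is the largest part in every ZM library and Mmp9 in every Ctrl library.

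Compared per length by FPKM, the order in ZM cells was Mmp12 at 160 ± 10.0, Mmp9 at 73.5 ± 37.9, Timp2 at 72.3 ± 9.67, Mmp14 at 41.8 ± 1.69, Mmp8 at 11.4 ± 3.15 and Mmp19 at 6.48 ± 0.498. Timp1 at 0.912 ± 0.176, Mmp2 at 0.708 ± 0.160 and Timp3 at 0.0140 ± 0.00428 followed (SD, n = 3). Neighbours that overlapped in ZM were Mmp9 with Timp2 and with Mmp14, and Timp1 with Mmp2. In Ctrl cells the order was Mmp9 at 600 ± 8.18, Mmp12 at 153 ± 3.00, Timp2 at 66.3 ± 1.53, Mmp14 at 44.4 ± 2.41, Mmp8 at 9.45 ± 0.726 and Mmp19 at 6.78 ± 0.183. There Timp1 at 0.481 ± 0.134 and Mmp2 at 0.344 ± 0.0560 overlapped, and Timp3 was lowest at 0.0221 ± 0.0124. The ratio of Mmp14 to Timp2 FPKM, the pair that handles the Mmp2 precursor, was 0.639, 0.638 and 0.482 in ZM replicates 1, 2 and 3 and 0.647, 0.695 and 0.668 in Ctrl replicates 1, 2 and 3. ZM replicates 1 and 2 lay close to the Ctrl values, and only ZM replicate 3 was far below them. This ratio too was chosen after the values were seen and was not tested.

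Of the 18 other Mmp and Timp genes, 13 had an entry and 7 were tested. By edgeR 0 were called in either direction, beside 11% over all genes tested, and 2 had an unadjusted p under 0.05. These were Mmp13, the collagenase of cartilage and bone, and Mmp10, a stromelysin. Mmp13 had 8.97, 7.30 and 9.60 CPM in ZM replicates 1, 2 and 3, against 10.0, 12.2 and 12.5 CPM in Ctrl replicates 1, 2 and 3. Its groups did not overlap (log2 fold -0.42, SE 0.15, adjusted p = 0.111 by edgeR), and it was called without ZM replicate 3 (adjusted p = 0.0381). Mmp10 had 10, 6 and 0 counts in ZM replicates 1, 2 and 3, against 20, 18 and 18 counts in Ctrl replicates 1, 2 and 3 (adjusted p = 0.142). The other 5 tested were Mmp11, Mmp15, Mmp23, Mmp25 and Mmp27, with mean levels of 0.16 to 1.61 CPM in ZM and 0.19 to 1.51 CPM in Ctrl cells and log2 folds from -0.87 for Mmp11 to 0.53 for Mmp23. Exons of Mmp11 share 155 bases with Chchd10 on the opposite strand, which had 5107 counts against 118 for Mmp11, so the level of Mmp11 is uncertain.

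Mmp12 and Mmp8 belong to a cluster of metalloproteinase genes on chromosome 9, and the other genes of the cluster with an entry were lower than both. Along the chromosome, Mmp13 (chr9:7272514-7283331) averaged 3.14 ± 0.309 FPKM in ZM and 4.43 ± 0.494 FPKM in Ctrl cells. Among genes with an entry, Mmp12 and then Mmp3 follow, and Mmp3 (chr9:7445822-7455975) had a total of 6 counts in ZM and 4 counts in Ctrl libraries. Mmp10 (chr9:7502352-7510240) averaged 0.0583 ± 0.0542 FPKM in ZM and 0.226 ± 0.0255 FPKM in Ctrl cells. Mmp27 (chr9:7571396-7581885), beyond Mmp8, averaged 0.704 ± 0.230 FPKM in ZM and 0.701 ± 0.0619 FPKM in Ctrl cells. At the far end Mmp7 (chr9:7692090-7699585) had 0 counts in ZM and 4 counts in Ctrl libraries. Of these genes Mmp12 was thus the one above 100 FPKM in each library. None of those tested was called, and Mmp3 and Mmp7 had too few counts to be tested.

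Among genes that activate or restrain the proteases, Serpine2 fell and Plaur rose. Of 18 listed genes 15 were tested, of which 1 rose, 1 fell and 13 were not called, beside 5.54% called higher and 5.44% called lower over all genes tested. The median log2 fold was -0.14. Serpine2, a secreted serine protease inhibitor that blocks urokinase and plasmin, had 0.593, 0.955 and 0.636 CPM in ZM replicates 1, 2 and 3, against 6.86, 6.48 and 8.24 CPM in Ctrl replicates 1, 2 and 3. It fell 9.84-fold (log2 fold -3.30, SE 0.24, adjusted p = 0.00153 by edgeR) and kept the call without any single library. Plaur, the cell-surface receptor of urokinase, rose 1.56-fold, at 155 ± 4.76 CPM in ZM and 99.2 ± 5.19 CPM in Ctrl cells (SD, n = 3 each; adjusted p = 0.00772 by edgeR). Its call was lost without Ctrl replicates 1, 2 and 3 (adjusted p = 0.0664, 0.0535 and 0.0657).

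Urokinase itself, Plau, which starts plasmin formation and so protease activation, was at 50.6 ± 6.94 CPM in ZM and 58.5 ± 4.41 CPM in Ctrl cells (adjusted p = 0.283). The precursor convertase Pcsk7 was at 39.9 ± 5.91 CPM in ZM and 50.0 ± 1.58 CPM in Ctrl cells (adjusted p = 0.122). Thbs1, a matrix protein that binds Mmp9 and Mmp2, had 10.4, 14.3 and 50.0 CPM in ZM replicates 1, 2 and 3, against 6.96, 7.72 and 7.46 CPM in Ctrl replicates 1, 2 and 3. ZM replicate 3 was far above the other ZM libraries, and the difference did not pass the test (log2 fold 1.75, adjusted p = 0.0812), but did without this library (log2 fold 0.74, adjusted p = 0.00821), without ZM replicate 2 (adjusted p = 0.0339) and with no filter (adjusted p = 0.0267).

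Of 18 listed matrix genes, among them substrates of the proteases, 12 were tested. Of these 4 fell, 0 rose and 8 were not called, beside 5.44% called lower and 5.54% called higher over all genes tested. Their median log2 fold was -0.40. Spp1, the bone matrix protein osteopontin, averaged 618 ± 125 CPM in ZM and 1012 ± 52.7 CPM in Ctrl cells (log2 fold -0.71, adjusted p = 0.0287 by edgeR). Col18a1, a basement membrane collagen, averaged 84.6 ± 25.3 CPM in ZM and 155 ± 1.42 CPM in Ctrl cells (log2 fold -0.88, adjusted p = 0.042). Its log2 fold was -0.65 without ZM replicate 3, its lowest library. Vcan, the proteoglycan versican, averaged 16.5 ± 3.81 CPM in ZM and 40.0 ± 2.74 CPM in Ctrl cells (log2 fold -1.28, adjusted p = 0.00785). Hspg2, the basement membrane proteoglycan perlecan, averaged 0.519 ± 0.147 CPM in ZM and 2.00 ± 0.518 CPM in Ctrl cells (log2 fold -1.94, adjusted p = 0.0137). Fibronectin, Fn1, was at 6.41 ± 0.610 CPM in ZM and 5.74 ± 0.618 CPM in Ctrl cells (adjusted p = 0.474).

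Each of these 4 calls was lost in part of the repeats with 1 library left out. That of Vcan was lost without Ctrl replicates 1 and 3 (adjusted p = 0.0543 and 0.0503). That of Hspg2 was lost without Ctrl replicates 1 and 3 and ZM replicate 1 (adjusted p = 0.0764, 0.0757 and 0.0532), and that of Spp1 without Ctrl replicates 1, 2 and 3 (adjusted p = 0.118, 0.117 and 0.135). That of Col18a1 was lost without Ctrl replicates 1, 2 and 3 (adjusted p = 0.157, 0.144 and 0.152), without ZM replicate 1 (adjusted p = 0.0793) and with no composition factor (adjusted p = 0.0548).

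**Figure D4:**
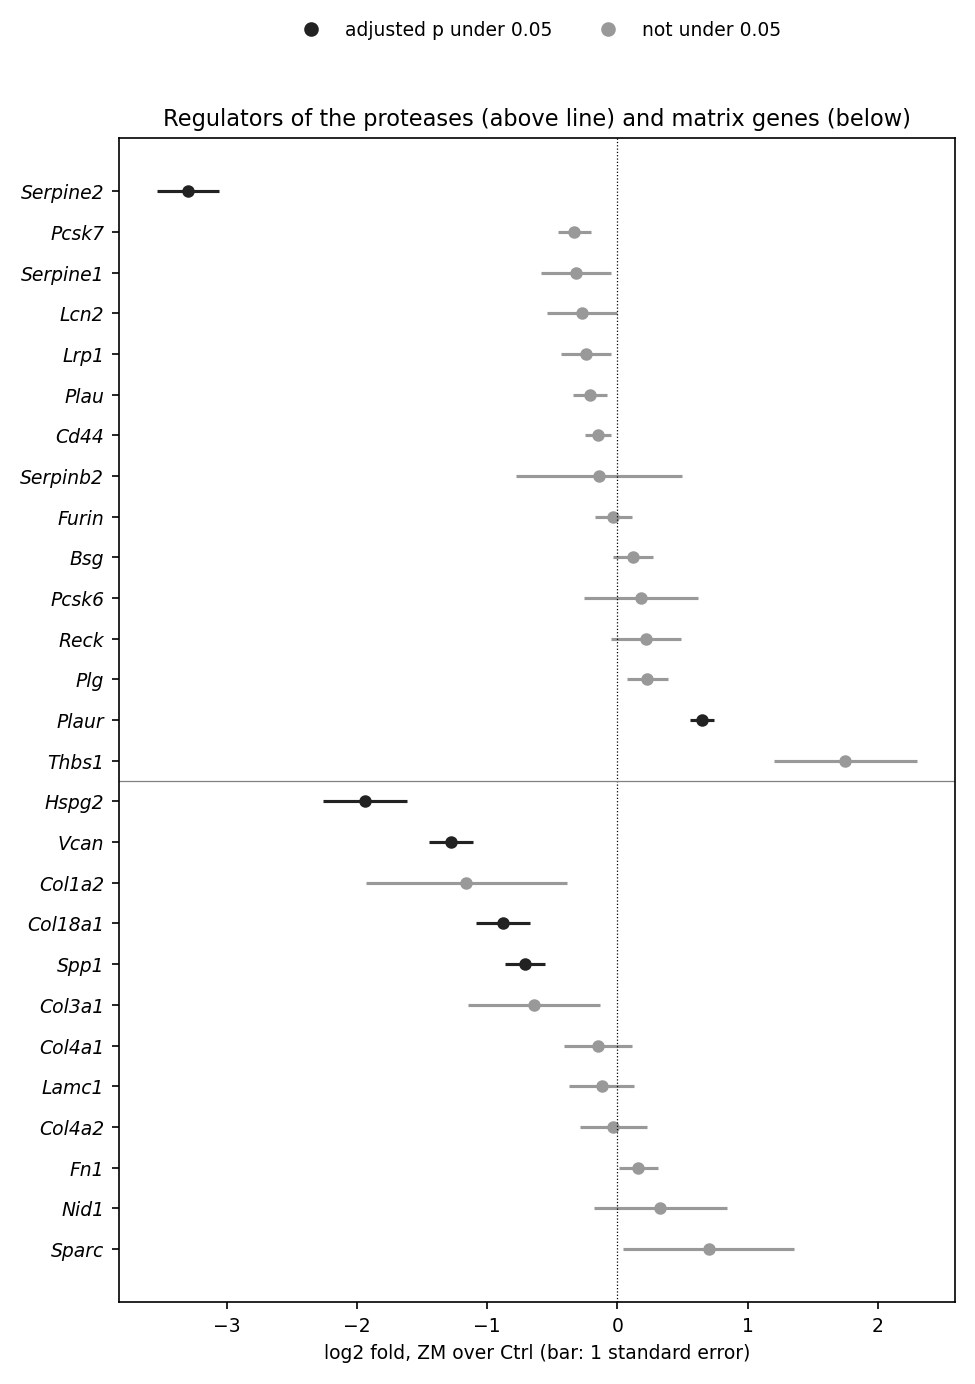
Log2 fold of ZM over Ctrl for the 15 tested genes that activate or restrain metalloproteinases (above the line) and the 12 tested matrix genes (below it), with bars of 1 standard error; black marks adjusted p under 0.05. Serpine2 at -3.30 and Plaur at 0.65 stand in black above the line, and Hspg2, Vcan, Col18a1 and Spp1 below it.

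The genes most like each member over the 6 libraries were found by Euclidean distance between log2 CPM values set relative to the Ctrl mean. They were taken from 8805 genes that averaged 10 CPM or more. This choice favours genes with a like fold and spread, so shared calls and shared extreme libraries follow largely from it. Nearest to Mmp9 were Myo1d, which encodes an unconventional myosin, at a distance of 0.197 log2 units, Car2, the carbonic anhydrase with which osteoclasts make protons, at 0.238, and Slc18a1, a vesicular amine transporter, at 0.284. Their log2 folds were -3.07, -2.89 and -2.98 in that order. All 3 were called and lowest in ZM replicate 3, as Mmp9 was, though the calls on Car2 and Slc18a1 were lost without Ctrl replicate 3 (adjusted p = 0.0503 and 0.0513). Nearest to Mmp2 were Arid5a, an RNA-binding protein, at 0.295, Nupr1, a stress-response protein of the nucleus, at 0.305, and N4bp3 at 0.315, with log2 folds of 1.15, 1.15 and 0.99. All 3 were called, but not without any of the Ctrl libraries or ZM replicate 1, at adjusted p of 0.0564 to 0.119. Nearest to Timp1 were Tmem256 at 0.363, Ms4a6b at 0.451 and Anxa3 at 0.458, all called, with the calls lost without each Ctrl library (adjusted p of 0.0706 to 0.136). Those on Tmem256 and Ms4a6b were also lost without ZM replicate 1 (adjusted p = 0.068 and 0.0531).

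For the members that did not pass the test, the nearest genes, chosen for a like profile, did not pass it either, Timp1 excepted. They were Taf15, Ppp4r1 and Def8 for Mmp12, Taf4, Rhoj and Ndufa5 for Mmp14, Pigyl, Dlgap4 and Ptpn18 for Mmp8, Rab22a, Slc31a1 and Ccdc59 for Mmp19, and Insig1, Nsa2 and Armc7 for Timp2. Their adjusted p ranged from 0.23 for Pigyl to 0.992 for Ndufa5.

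**Figure D5:**
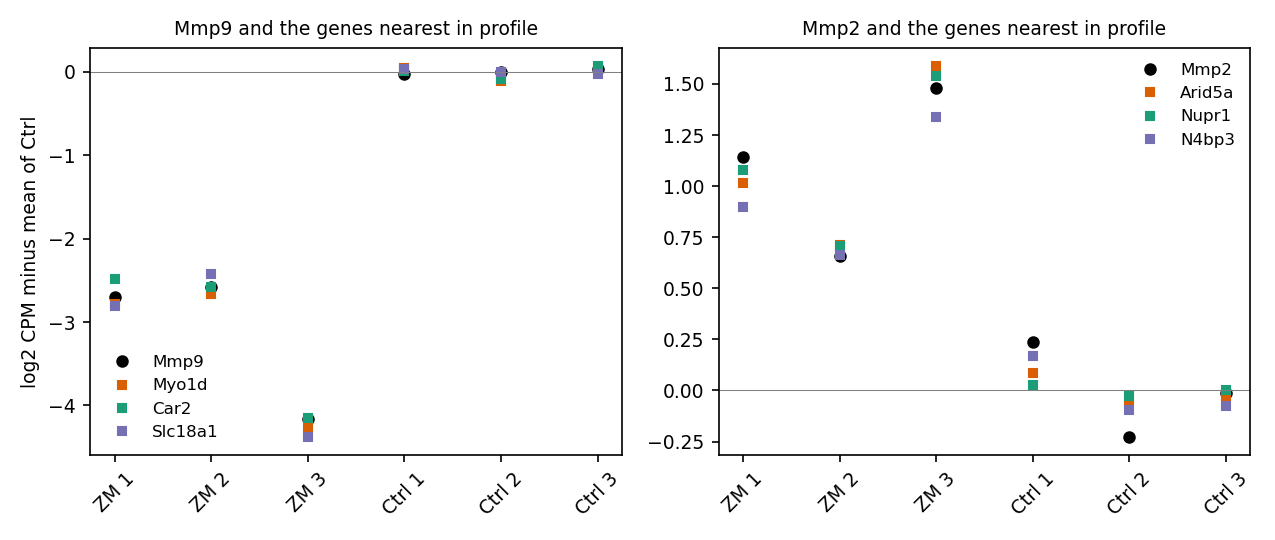
Log2 CPM relative to the mean of the Ctrl libraries, for Mmp9 (left) and Mmp2 (right) as black circles and the 3 genes nearest to each in profile as coloured squares, with ZM libraries left of Ctrl libraries. ZM replicate 3 is the lowest library for Mmp9, Myo1d, Car2 and Slc18a1, and the highest for Mmp2, Arid5a, Nupr1 and N4bp3.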

How the data were processed

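The submitters' processing notes list featureCounts 2.0.3, Subread, HISAT2 2.2.1, the build mm10 and DESeq2, with no role or order given; annotation release, strand setting and filters are not given in the sources used here. The deposited values were whole-number counts per gene, not normalized by the authors, and deposited FPKM values, which were these counts divided by gene length scaled by the column total. The length behind the FPKM was whole within 0.001 bases for 26106 genes and equal to the exonic length in GENCODE M21 for 98.2% of the 25680 identifiers found there, all 9 members included. Among counts of 1 to 20, 72.7% to 76.4% were even, as when both mates of a pair are counted.

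Counts were tested with edgeR 4.0.16 (R 4.3.3): filterByExpr, TMM factors and the quasi-likelihood F test on group alone, over 15590 genes. The standard error is the log2 fold over the square root of F. On simulated counts, 100 of 100 genes changed 2 log2 units and 85 of 100 changed 1 unit were recovered, with 6 false calls among 15367 genes. The simulation gave all genes and both groups the same spread, with no outlying library. It checks the code, and its rates do not carry over to these libraries, where ZM varied more than Ctrl. Alternatives were other scalings and filters, DESeq2 1.42.0, limma-voom (limma 3.58.1), the replicate number as a block, counts divided by 2, and each library left out.

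Named genes were the 9 members, every other tested Mmp or Timp gene, up to 5 genes of lowest adjusted p with at least 1 CPM from the regulator and matrix lists, and the 3 genes nearest in profile to each tested member (0.01 CPM added before the log). Markers named were chosen after their values were seen. Members and lists were chosen with earlier results of these data known. Of 6 endothelial markers 4 were tested, and 2 were lower with ZM (Kdr and Vwf), beside 5.44% called lower over all genes tested. Both calls were lost when any Ctrl library was left out (adjusted p of 0.0746 to 0.119 by edgeR). That on Vwf was also lost without ZM replicate 1 (adjusted p = 0.0536). Kdr averaged 14.2 CPM in ZM and 46.3 CPM in Ctrl cells, and Vwf 31.6 and 48.4 CPM. Pecam1, Cdh5, Tek and Emcn averaged 0 to 0.315 CPM in ZM and 0.0264 to 0.635 CPM in Ctrl cells. Whether endothelial cells were present was not tested.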

Additional observations from a re-analysis of the deposited data

How the results depend on the processing

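The fall of Mmp9 kept its call in all 15 alternatives. The count of members called lower was 1 in each. The count called higher was 0 under a floor of 1 CPM in all libraries, which left Mmp2 untested, 0 with limma-voom, and 0 to 1 with 1 library left out. The count of genes called over the whole table, 1711, was 3295 with DESeq2 and 148 to 5023 with 1 library left out. The replicate number as a block called 1679 genes. Deviations of same-numbered libraries from their group means correlated at 0.0216, 0.0556 and 0.154. ZM replicates 1 and 2 correlated best with another number, and ZM replicate 3 with its own. No clear pairing by number was seen, but with 3 libraries per group this check cannot exclude it. The block changed no call on a member.

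Without division by gene length, the share of Mmp9 in the Mmp sum was 14.6% in ZM, against 24.0% with it, and 59.9% in Ctrl, against 73.7% with it, and the ratio of the Mmp to the Timp sum was 6.21 in ZM and 13.7 in Ctrl. With 1 library left out the share ranged from 20.6% to 29.8% in ZM and from 73.6% to 73.9% in Ctrl, and the ratio from 3.79 to 4.74 in ZM and from 12.0 to 12.3 in Ctrl.

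Log2 folds near 0 changed sign. That of Mmp19 (0.0045) was -0.065 with no composition factor, -0.0134 with at least 1 CPM in all libraries, -0.0038 with limma-voom and -0.0011 with the replicate block, that of S100a8 was 0.0078 with limma-voom and 0.0126 with the replicate block, that of Ndufa5 was 0.0016 with upper-quartile factors and 0.0002 with no filter, and that of Slc31a1 was -0.0318 with no composition factor. With 1 library left out, log2 folds on both sides of 0 were found for Mmp19 (-0.0837 to 0.0804), Mmp14 (-0.0511 to 0.0196), Mmp15 (-0.4656 to 0.4173), Mmp27 (-0.262 to 0.2831), Ndufa5 (-0.0197 to 0.0208), Nsa2 (-0.0003 to 0.2766), S100a8 (-0.1741 to 0.0973), Rab22a (-0.0674 to 0.0453), Slc31a1 (-0.0321 to 0.0888) and Ccdc59 (-0.1065 to 0.013). Over the alternatives and the members tested in the main fit, 106 values kept direction and side of the threshold. Another 5 lost the call, all for Mmp2, and 7 changed sign, for Mmp19 and Mmp14. The cause of these changes was not tested. The members with the fewest counts were Timp3 and Timp1, with 44 and 189 in all, and Timp3 was too low to be tested in the main fit. With no filter its log2 fold was -0.58 (SE 0.76, adjusted p = 0.657 by edgeR).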
